A study of Mus musculus with 2 samples.

Results

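The Notch receptors Notch1, Notch2 and Notch3, their ligands Dll1, Dll3, Dll4, Jag1 and Jag2, and the Notch antagonists Numb and Numbl were described in embryonic mouse forebrain. The set is defined by gene name, with no threshold on measured values, and all 10 genes were found among the 43346 Ensembl genes of the deposited tables through the gene names of GENCODE M21 (GRCm38). The tissue was forebrain of C57BL/6NCrl embryos (B6NCrl in the labels) at embryonic day 11.5, described as healthy, with no transgene, deletion or treatment named. Total RNA was sequenced in 1 group of 2 libraries, each from a pool of mixed sex: replicate 1 from 109 embryos and replicate 2 from 88. There was no other tissue, age or genotype, so the data give the level of each gene and how far the pools differed. Because embryos were pooled, the spread between animals cannot be seen, and in whole tissue fewer cells of a type and less RNA per cell cannot be told apart.

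Notch receptors are transmembrane proteins that a ligand on a neighbouring cell activates. Pulling by the ligand exposes the receptor to cleavage by ADAM proteases and then by gamma-secretase, and the freed intracellular domain enters the nucleus, joins the DNA-binding protein Rbpj and switches on Hes and Hey repressors. In the embryonic forebrain these repressors hold back the proneural factors, so that radial glial progenitors persist while neighbouring cells rich in Dll1 become neurons. Numb and Numbl are membrane-associated adaptors that bind endocytic proteins and counteract Notch.

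Annotated genes held 23165260 expected counts in replicate 1 and 33597028 in replicate 2, and spike-in RNAs took 13.0% and 12.7% of all TPM. TPM is an abundance scaled by transcript length and by the total of each table, and all levels below are TPM of whole genes unless another scale is named. The ± values are SD over the 2 libraries (n = 2). The 6 forebrain markers all stood at 13.7 TPM or more on average, led by Lhx2 at 154.28 and 138.82, Pax6 at 76.66 and 81.23 and Emx2 at 60.39 and 62.56 TPM in replicates 1 and 2. Transcripts of 8 progenitor markers summed to 2052 and 2081 TPM, with Vim, Fabp7 and Hes5 the highest. Those of 8 newborn neuron markers summed to 1012 and 946 TPM, with Tubb3, Map2 and Stmn2 the highest.

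Notch1, a receptor with a main role in neural progenitors, was the most abundant receptor at 53.89 TPM in replicate 1 and 55.94 in replicate 2 (54.9 ± 1.45). Notch2 followed at 20.85 and 21.55 TPM (21.2 ± 0.495), and Notch3 at 21.43 and 20.75 TPM (21.1 ± 0.481). Notch1 therefore stood well above the others in each library, while Notch2 and Notch3 changed places between libraries and could not be ordered. Notch1 made up 56.0% and 56.9% of the summed TPM of the 3 receptors, Notch2 21.7% and 21.9%, and Notch3 22.3% and 21.1%. The mean level of Notch1 was above that of 86.0% of protein-coding genes, and those of Notch2 and Notch3 above 71.2% and 71.1%. These values rested on 7206.59 and 10077.9 expected counts for Notch1, 3318 and 4958 for Notch2, and 2603.07 and 3644.97 for Notch3.

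The remaining receptor, Notch4, which is known from endothelial cells, was listed at 6.89 and 4.59 TPM. Its counts, 304 and 396, differed less between libraries than its TPM did, with a log2 ratio of counts, replicate 2 over replicate 1, of -0.15. The mean length of its transcript models, as the quantification weighted them, was 2983 bases in replicate 1 and 3997 in replicate 2. Notch3 is also a known receptor of pericytes, the mural cells of capillaries. The 6 pericyte markers summed to 25.8 and 26.9 TPM, with Pdgfrb at 15.13 and 17.16, Kcnj8 at 4.98 and 3.46 and Anpep at 2.37 and 1.99 TPM. None was at 0, and 5 of the 6 were at 1 TPM or more in both libraries. The exception, Cspg4, was at 0.63 TPM in replicate 1 and 1.00 in replicate 2. The part of pericytes in the Notch3 level was not tested.

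Among the ligands, Dll1, the delta-like ligand of cells entering neurogenesis, was the highest, at 66.75 TPM in replicate 1 and 76.59 in replicate 2 (71.7 ± 6.96). Dll3, which acts inside the cell on Notch and does not activate it on neighbours, stood at 39.84 and 34.37 TPM (37.1 ± 3.87). Dll4, the delta-like ligand of growing blood vessels, reached 2.92 and 2.23 TPM (2.58 ± 0.488). The 3 delta-like genes thus held their order in both libraries, and Dll4 stood at 4.37% and 2.91% of the level of Dll1.

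Jag1, a ligand of the other structural class, was measured at 16.32 and 15.51 TPM (15.9 ± 0.573). Jag2 was the lowest of the 10 genes, at 2.60 and 2.09 TPM (2.35 ± 0.361), and its library range overlapped that of Dll4. Delta-like transcripts together were 5.79 and 6.43 times as abundant as jagged transcripts (6.11 ± 0.455). Dll1 alone made up 52.0% and 58.6% of ligand TPM, Dll3 31.0% and 26.3%, and Jag1 12.7% and 11.9%. Dll4 and Jag2 held 2.27% and 1.71%, and 2.02% and 1.60%. Summed receptors stood at 0.749 and 0.751 times summed ligands, so that this ratio moved less than the ligand shares did.

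Endothelial cells are a known source of Dll4 and Jag1. Their 10 markers were all detected at 1 TPM or more in both libraries and summed to 184 and 177 TPM, with means from 7.85 to 48.5 TPM and none at 0. Egfl7 (50.64 and 46.38 TPM), Esam (24.26 and 23.53) and Kdr (22.59 and 22.63) were the highest. The part of these cells in the levels of Dll4 and Jag1 was not tested.

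The level of Numb was 25.95 TPM in replicate 1 and 27.01 in replicate 2 (26.5 ± 0.750), and that of Numbl 15.11 and 15.88 TPM (15.5 ± 0.544). At the level of whole genes Numb exceeded Numbl in each library, by 1.72 and 1.70 times (1.71 ± 0.0117). Coding transcripts made up 56.3% and 55.3% of Numb TPM, against 91.4% and 90.8% of Numbl TPM. The leading transcripts stood in the other order, a comparison chosen after seeing the data. Numb-204 was at 12.17 and 9.98 TPM, and Numbl-201 at 13.80 and 14.41. This leaves out the other coding transcript of Numb with counts, Numb-208, at 2.45 and 4.96 TPM. With Numb-208 added, coding TPM of Numb stood above that of Numbl in each library. Numb was above 74.7% of protein-coding genes and Numbl above 66.2%.

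**Figure D1:**
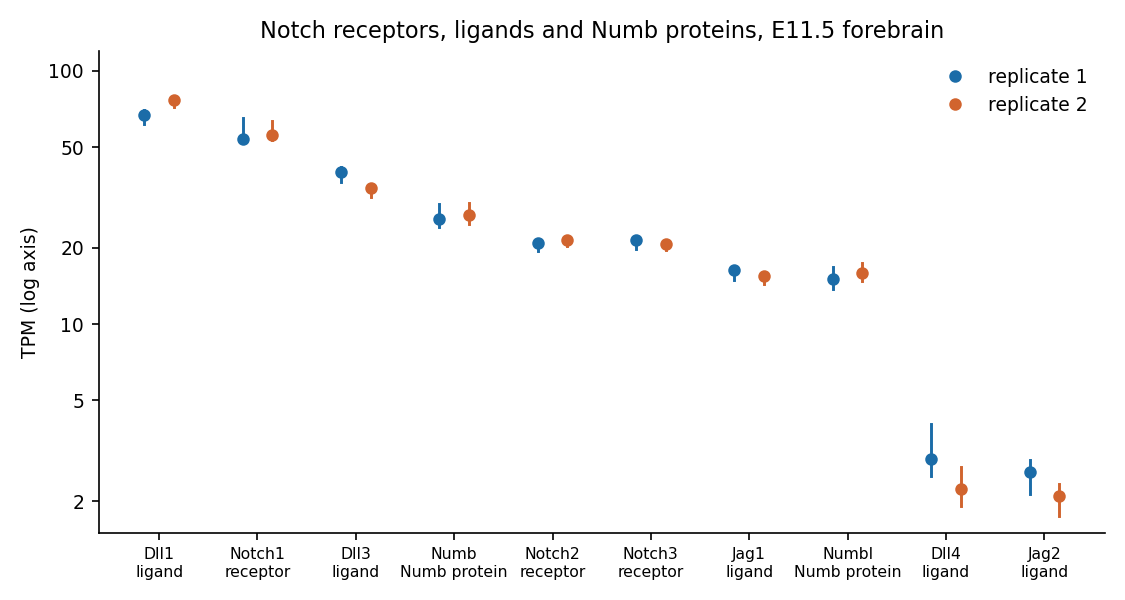
TPM of the 10 genes in replicate 1 (blue) and replicate 2 (orange) on a log axis, in order of mean level; points are the deposited TPM and vertical lines the deposited credibility intervals. A point can lie outside its line, as for Notch2 in replicate 1 (20.85 TPM, interval 19.4 to 20.8, posterior mean TPM 20.1). The values run from 76.59 TPM for Dll1 to 2.09 TPM for Jag2, with the widest step between Numbl and Dll4.

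Ordered by mean TPM the genes ran Dll1, Notch1, Dll3, Numb, Notch2, Notch3, Jag1, Numbl, Dll4 and Jag2. The library ranges of 3 neighbouring pairs overlapped: Notch2 with Notch3, Jag1 with Numbl, and Dll4 with Jag2. The largest step, a ratio of 6.02, lay between Numbl and Dll4, and the other steps between neighbours were ratios of 1.01 to 1.48. Dll1 stood above Notch1 in TPM in both libraries, but the deposited credibility intervals of these 2 genes, whose level the files do not state, overlapped in replicate 1 (61.6 to 69.9 TPM for Dll1 and 53.8 to 65.2 for Notch1). Taking only the highest transcript of each gene, a setting chosen after seeing the data, Numb fell from rank 4 to rank 8 at 11.1 TPM, and no other gene passed a neighbour except where Numb moved.

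Transcripts differed in number between the genes. Notch2, Notch3 and Jag2 each had 1 transcript in the tables and Dll4 had 1 of 2 with counts, so their gene levels are those of 1 coding transcript. Notch1 had counts on 6 of 11 transcripts. Notch1-201, of 34 exons, held 92.0% and 85.6% of its TPM, and transcripts of the processed type, which have no reading frame, held 5.77% and 12.6%. By expected counts the latter held only 0.179% and 0.490%. Those with counts are 284 to 459 bases long: 32.3 counts on Notch1-202, of 406 bases, gave 4.76 TPM in replicate 2, against 0.24 counts and 0.05 TPM in replicate 1. The retained-intron transcript Notch1-205, of 4132 bases and also without a reading frame, held 2.19% and 1.75% of TPM and 1.01% and 0.868% of counts. Dll3-201 held 89.8% and 90.3% of Dll3 TPM, Jag1-201 96.6% and 94.3% of Jag1, and Numbl-201 91.4% and 90.8% of Numbl. Retained-intron transcripts of Numbl held 7.09% and 8.07% of TPM but 17.0% and 16.9% of counts, as Numbl-205 is 8511 bases long.

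For Dll1, the full coding transcript Dll1-201 held 50.28 and 58.42 TPM (75.3% and 76.3%). The retained-intron transcript Dll1-204, of 751 bases, held 13.02 and 13.45 TPM (19.5% and 17.6%), but only 4.57% and 4.08% of counts. The distinguishing stretch of Dll1-204 is the last intron of Dll1-201, 98 bases at chr17:15368036-15368133 (GRCm38, minus strand). It is shown because reads inside it cannot come from spliced Dll1-201. Unspliced Dll1 RNA holds the same intron, and its part in the level of Dll1-204 was not tested. The intron is printed from the GENCODE M21 transcripts in capitals, 5′ to 3′, with 15 bases of exon in lower case on either side.
Dll1 intron: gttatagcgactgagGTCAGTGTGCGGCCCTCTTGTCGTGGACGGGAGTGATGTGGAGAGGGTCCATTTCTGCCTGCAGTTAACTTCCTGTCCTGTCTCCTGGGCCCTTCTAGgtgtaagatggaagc

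**Figure D2:**
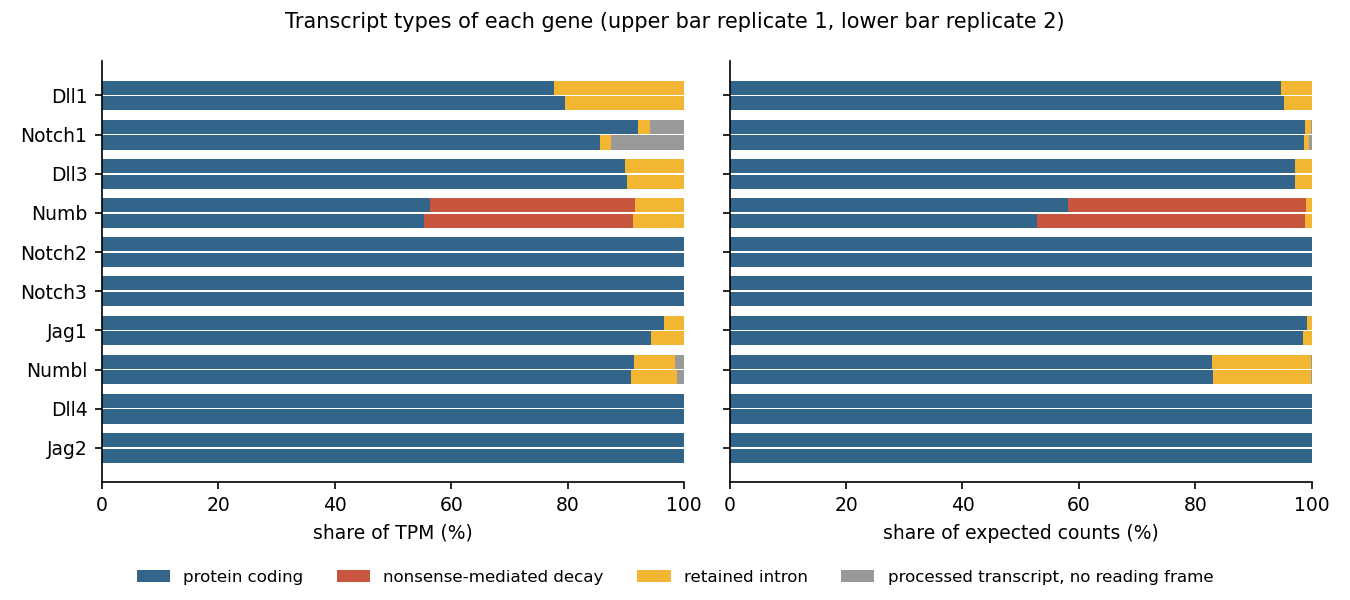
Share of each gene's TPM (left) and expected counts (right) by annotated transcript type, as bars from 0 to 100%, with replicate 1 above replicate 2. Numb is the gene with transcripts annotated as targets of nonsense-mediated decay, at 35.3% and 35.9% of TPM, and the retained-intron share of Dll1 is 22.3% and 20.4% of TPM against 5.26% and 4.74% of counts.

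Numb was the gene whose level was most divided among transcripts, with counts on 5 of 11. Its isoforms are known for 2 cassette exons, one that inserts residues into the phosphotyrosine-binding domain near the amino terminus and one that inserts residues into the proline-rich region. The first is 33 bases (11 codons) at chr12:83825259-83825291, and the other is 147 bases (49 codons) at chr12:83797197-83797343 (both GRCm38, minus strand). They are shown with each exon in capitals between 15 bases of the neighbouring exons in lower case, followed by the joins that skip them, read from the GENCODE M21 transcripts Numb-207 and Numb-204.
33-base exon included: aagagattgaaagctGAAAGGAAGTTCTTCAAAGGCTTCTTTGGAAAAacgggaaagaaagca
33-base exon skipped: aagagattgaaagctacgggaaagaaagca
147-base exon included: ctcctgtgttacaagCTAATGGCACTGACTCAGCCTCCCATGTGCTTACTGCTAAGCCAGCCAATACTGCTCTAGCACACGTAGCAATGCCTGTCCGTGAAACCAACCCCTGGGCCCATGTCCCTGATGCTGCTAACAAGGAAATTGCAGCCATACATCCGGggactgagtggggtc
147-base exon skipped: ctcctgtgttacaagggactgagtggggtc

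The leading transcript was Numb-204, which is protein coding and skips both cassettes. It held 12.17 TPM in replicate 1 and 9.98 in replicate 2, or 46.9% and 36.9% of Numb TPM. Numb-203, annotated as a target of nonsense-mediated decay, the pathway that degrades transcripts with early stop codons, held 8.08 and 7.19 TPM (31.1% and 26.6%). Numb-208, a coding fragment of 644 bases that includes the 33-base exon, held 2.45 and 4.96 TPM (9.44% and 18.4%) on 20.4 and 59.8 counts. Numb-202, also annotated as a decay target, held 1.07 and 2.52 TPM, and the retained-intron transcript Numb-205 held 2.18 and 2.36 TPM. The decay targets together made up 35.3% and 35.9% of Numb TPM, while coding transcripts made up 56.3% and 55.3%.

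What sets the decay targets apart is shown in capitals, from Numb-204. Numb-203 lacks 55 bases at the start of an exon (chr12:83811306-83811360), a length that leaves a remainder of 1 when divided by 3, and its annotated coding sequence is 228 bases against 1779 in Numb-204. Numb-202 lacks 134 bases (chr12:83799524-83799657), a length that leaves a remainder of 2, and its annotated coding sequence is 966 bases.
left out of Numb-203: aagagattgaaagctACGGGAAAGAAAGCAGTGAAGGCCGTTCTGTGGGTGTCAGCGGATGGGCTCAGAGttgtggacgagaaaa
left out of Numb-202: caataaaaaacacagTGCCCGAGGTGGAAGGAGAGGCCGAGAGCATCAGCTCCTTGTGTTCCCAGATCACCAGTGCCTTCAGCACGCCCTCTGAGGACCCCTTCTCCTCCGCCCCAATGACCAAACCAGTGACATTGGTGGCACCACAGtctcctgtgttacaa

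The 147-base exon was included in 42.9% and 49.3% of the TPM of transcripts that span it (46.1% ± 4.52), and by counts the mean share was 45.3%. All of that TPM, 9.15 in replicate 1 and 9.71 in replicate 2, lay on the decay targets Numb-202 and Numb-203. The coding transcripts with this exon, Numb-207 and Numb-210, were listed at 0 counts in both libraries, as was Numb-201, which has the 33-base exon alone. The table models of these 3 transcripts are 1962, 1929 and 1815 bases, of which 1959, 1926 and 1812 are coding, so they hold nearly no untranslated sequence, while Numb-204 is 3549 bases long. The part of these model lengths in the shares was not tested.

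The 33-base exon was included in 14.8% of spanning TPM in replicate 1 and 30.3% in replicate 2 (22.6% ± 11.0), and in 6.70% and 16.1% of spanning counts. Inclusion was higher in replicate 2 on either scale. The transcripts behind it, Numb-202 and Numb-208, had wide credibility intervals, 0.0742 to 3.10 and 0.145 to 4.81 TPM for Numb-202, and 6.5e-06 to 2.69 and 0.572 to 5.92 TPM for Numb-208. These overlap between the libraries for each transcript, and the difference in the use of this exon was not tested. No reads across its joins were used, only the deposited estimates.

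**Figure D3:**
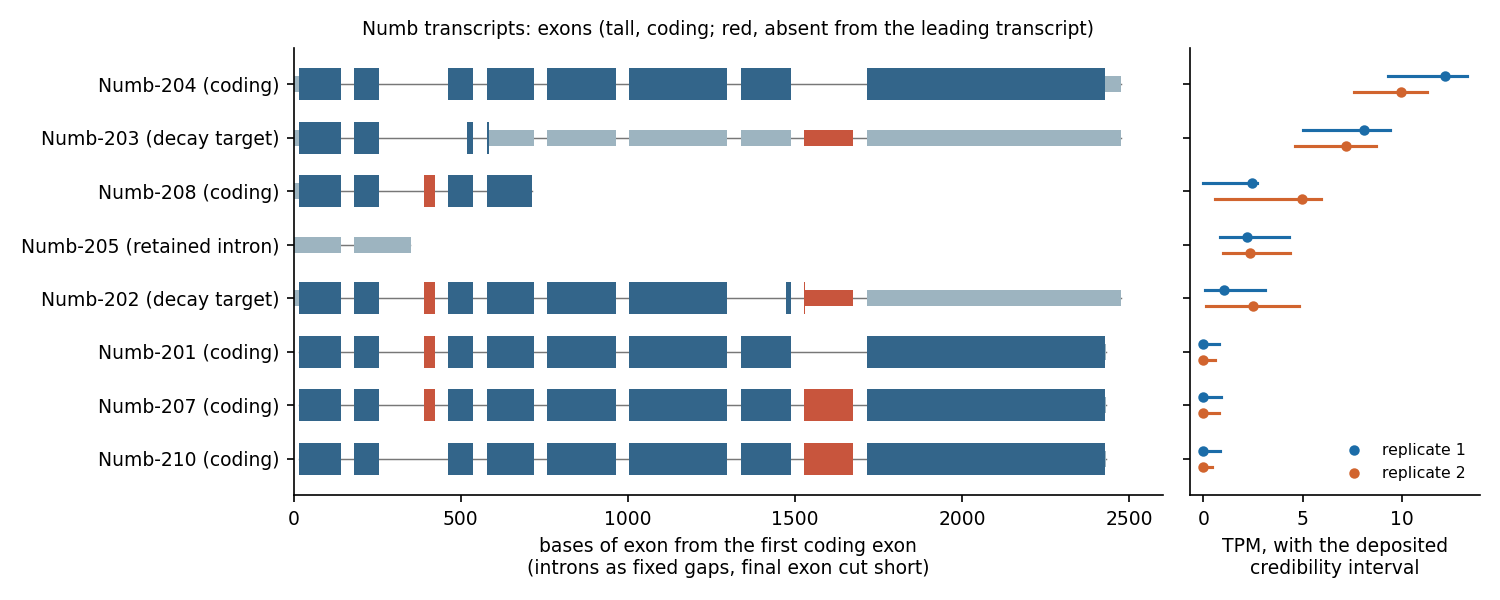
Left, exons of 8 Numb transcripts in bases from the first coding exon, with introns as fixed gaps and the final exon cut short. Tall boxes are coding, and red marks exons that overlap no exon of Numb-204. Right, TPM in each library with the deposited credibility interval: Numb-204 leads at 12.17 and 9.98 TPM, Numb-203 follows at 8.08 and 7.19, and Numb-201, Numb-207 and Numb-210 are at 0.

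The libraries were then compared through their counts, by a two-sided exact binomial test that takes the scaled library sizes as the expected split, with Benjamini-Hochberg adjustment over 18297 genes. With 1 library on each side this compares the 2 libraries and not conditions. Of the 10 genes, Dll1 passed at an adjusted p under 0.05 with more counts in replicate 2, and Dll3 passed with more in replicate 1. Across all genes 23.0% passed, 11.9% higher in replicate 2 and 11.1% higher in replicate 1, so the members' count of 2 of 10 is near the background.

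Counts of Dll1 were 2841.08 in replicate 1 and 4758 in replicate 2, a log2 ratio of 0.21 after scaling (95% interval 0.14 to 0.28, exact binomial test, adjusted p = 2.7e-08). Counts of Dll3 were 1418 and 1778, a log2 ratio of -0.21 (-0.31 to -0.11, exact binomial test, adjusted p = 0.00072). The 2 ligands thus moved in opposite directions by similar amounts, and the ratio of Dll1 to Dll3 TPM went from 1.68 to 2.23 (1.95 ± 0.391). Among 1934 genes with counts within 1.5-fold of those of Dll1, 43.6% passed the same test and the SD of the log2 ratio was 0.11. For 3141 genes with counts like those of Dll3, 31.1% passed and the SD was 0.14. Each ligand therefore lay between 1 and 2 SD from 0. With the spread between libraries taken from all genes, by the edgeR exact test with a common coefficient of variation of 7.63%, none of the 10 passed (adjusted p = 0.95 for Dll1 and 0.98 for Dll3), none had an unadjusted p under 0.05, and 1.20% of all genes passed.

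The sparsest ligands had the largest ratios and the widest intervals. Dll4 had 163 and 180 counts and a log2 ratio of -0.39 (-0.70 to -0.08, exact binomial test, adjusted p = 0.060), and Jag2 had 157 and 183 counts and a log2 ratio of -0.31 (-0.63 to 0.0046, exact binomial test, adjusted p = 0.16). Among genes with as few counts the SD of the log2 ratio was 0.32 for each. Dll4 therefore lay between 1 and 2 SD from 0, as Dll1 and Dll3 did, and Jag2 within 1 SD. In the endothelial marker list 2 of 10 genes were higher in replicate 2 (Pecam1, Emcn), 3 were higher in replicate 1 (Cdh5, Cldn5, Flt1) and the median log2 ratio was -0.12, against the background of 11.9% and 11.1% of all genes. None of the 10 markers passed the edgeR exact test. The part of such cells in the Dll4 ratio was not tested.

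The other 6 genes had log2 ratios from -0.10 for Jag1 to 0.06 for Numbl, with Notch1 at -0.05, Notch2 at 0.05, Notch3 at -0.05 and Numb at -0.09, and exact binomial adjusted p from 0.094 to 0.64. Over the 10 genes the median log2 ratio was -0.07 with 7 below 0, while over all genes tested it was 0.00 with 9152 of 18297 below 0.

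**Figure D4:**
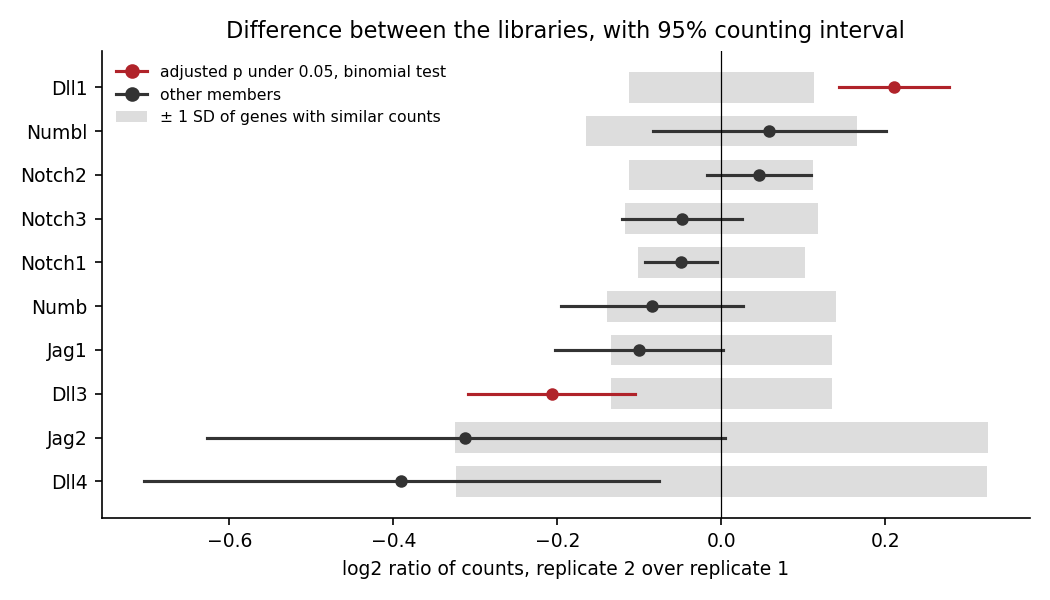
Log2 ratio of counts, replicate 2 over replicate 1, for each gene with its 95% counting interval; red marks genes past the exact binomial test, and grey bars span 1 SD of the ratio on either side of 0 among genes with similar counts. Dll1 at 0.21, Dll3 at -0.21 and Dll4 at -0.39 lie beyond the grey bar, and the intervals of Dll4 and Jag2 are several times wider than that of Dll1.

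The rest of the pathway was taken from a list of 53 genes grouped by role. At 1 TPM or more in both libraries were 50 of the 53, and by the exact binomial test 8 were higher in replicate 2 and 6 in replicate 1, against the background of 11.9% and 11.1% above. None passed the edgeR exact test, and the median log2 ratio was -0.01.

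Of the genes that act on ligands, Mib1, the ubiquitin ligase that drives ligand endocytosis, stood at 24.36 and 25.95 TPM and Mib2 at 17.58 and 16.72. Neurl1a and Neurl1b, of the other ligase family, were low at 2.55 and 1.71 and at 0.27 and 0.36 TPM. In counts Mib1 was higher in replicate 2 and Neurl1a in replicate 1. The non-canonical relatives of the ligands spanned a wide range: Dlk1, an imprinted delta-like protein, stood at 134.08 and 151.27 TPM, above all 5 canonical ligands, Dner at 24.92 and 22.52, and Dlk2 at 1.18 and 0.99.

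All 9 receptor-glycosylating genes were detected and none passed the exact binomial test, against 23.0% of all genes. Mfng, a fringe enzyme that extends the O-fucose sugars of Notch, led at 85.61 and 89.01 TPM, followed by the O-glucosyltransferase Poglut1 at 57.26 and 59.71 and the fringe Rfng at 38.17 and 35.88. All 10 receptor-cleavage genes were detected as well. Ncstn and Psenen, subunits of gamma-secretase, stood at 92.79 and 84.57 and at 79.30 and 76.90 TPM. In counts Adam10, a protease that makes the cut before gamma-secretase, was higher in replicate 2 and Ncstn in replicate 1.

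In the nucleus, Rbpj, the DNA-binding partner of the Notch intracellular domain, stood at 43.65 and 46.52 TPM. Snw1, a coactivator that is also a splicing factor, was the highest of the 7 nuclear genes at 122.73 and 116.22 TPM. All 6 target genes were detected. Hes5 was the highest at 250.90 and 247.14 TPM, above every receptor and ligand, and Hey1 at 51.14 and 55.99 and Hes1 at 52.95 and 52.52 lay close to Notch1. By the exact binomial test Hey1 and Nrarp were higher in replicate 2 and no target in replicate 1, against 11.9% and 11.1% of all genes. Among genes with counts like those of Hey1 and Nrarp, 35.8% and 36.9% passed that test. No target passed the edgeR exact test.

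Of 7 receptor turnover genes, Nedd4, a ubiquitin ligase with many substrates besides Notch, was the highest of all 63 pathway genes at 617.90 and 626.60 TPM. Dtx3, a Deltex ligase, followed at 134.43 and 124.40, and Itch, a ligase that works with Numb on Notch, at 48.47 and 55.21. Of the Numb partners, 5 of 6 were detected and none of the 6 passed the exact binomial test, against 23.0% of all genes. The endocytic adaptor subunits Ap2a2 and Ap2a1 stood at 79.58 and 80.39 and at 72.73 and 68.81 TPM, and Eps15, which Numb also binds, at 35.32 and 35.67.

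**Figure D5:**
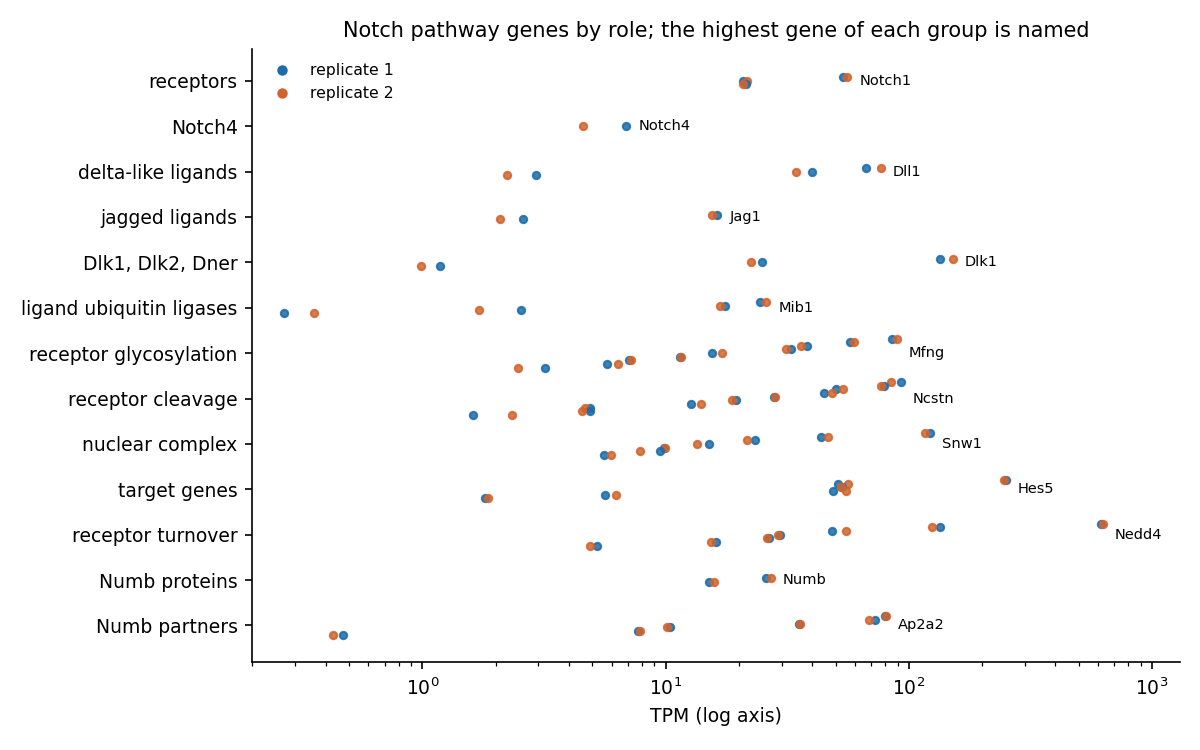
TPM of the 10 genes and 53 other pathway genes by role on a log axis, with a blue point for replicate 1 and an orange point for replicate 2 of each gene. The points span from 0.27 TPM for Neurl1b to 626.60 TPM for Nedd4, and Hes5 leads the target genes at 250.90 and 247.14 TPM.

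Some reads of these genes could also belong to neighbours. Of all 30-base stretches of the leading transcript, 14.1% in Notch1 and 16.0% in Dll1 also occur in a transcript of another gene on either strand, 6.86% in Notch3 and at most 4.98% in the other genes. With transcripts of other members, Dll3 shared 1 of 2589 such stretches and the other 9 genes none, so at that length the relatives can be told apart. Of the opposite-strand neighbours of Notch1, Gm13568 was listed at 25.25 and 31.00 TPM and 0610009E02Rik at 2.28 and 2.19, while that of Dll1, A930024N18Rik, was at 0.58 and 0.39. The handling of strand is not given in the sources used here. Whether reads of Notch1 and Gm13568 over 414 shared exon bases were told apart is therefore not known. The same holds for 1068 exon bases that Notch1 shares with 0610009E02Rik, and 867 that Dll1 shares with A930024N18Rik. The table model of Jag2 is 4054 bases long against 5106 in GENCODE M21.

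In GENCODE M21 on GRCm38, Notch1 (ENSMUSG00000026923.11 in the tables) lies at chr2:26457903-26516663 on the minus strand, Notch2 (ENSMUSG00000027878.10) at chr3:98013527-98150361 on the plus strand and Notch3 (ENSMUSG00000038146.7) at chr17:32120820-32166852 on the minus strand. Dll1 (ENSMUSG00000014773.9) lies at chr17:15367354-15376872 and Dll3 (ENSMUSG00000003436.11) at chr7:28293553-28302238, both on the minus strand. Dll4 (ENSMUSG00000027314.6) lies at chr2:119325784-119335962 on the plus strand. Jag1 (ENSMUSG00000027276.7) at chr2:137081456-137116644 and Jag2 (ENSMUSG00000002799.5) at chr12:112907819-112929776 are on the minus strand. Numb (ENSMUSG00000021224.10) lies at chr12:83794034-83921934 on the minus strand and Numbl (ENSMUSG00000063160.8) at chr7:27258433-27282144 on the plus strand.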

How the data were processed

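Total RNA from 2 pools of forebrain was sequenced, from 10 ng of RNA above 200 nucleotides with spike-ins and a SMART-seq protocol, per the labels. Reads were aligned to mm10 with the GENCODE M4 annotation, per the deposited text notes. The tools, their versions and the strand setting were not given in the sources used here. As deposited, gene and transcript tables hold expected counts, in which reads that fit several transcripts are divided among them. The deposited TPM and FPKM are scaled by transcript length, and TPM cover all entries, spike-ins included. A posterior mean TPM and credibility bounds (treated as signal values, level not stated) stand beside them, per the file headers. Per the file headers the transcript tables also give each transcript's percent of its gene.

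Names came from GENCODE M21 by stable identifier for 42462 of 43346 genes (98.0%). Numeric entries (26248, with 7.1e-05% and 5.1e-05% of counts) and 97 spike-in entries were left out of library sizes and tests. Expected counts were rounded, scaled with TMM (edgeR 4.0.16, R 4.3.3) and compared in Python 3.11.15 with scipy 1.17.1. Genes with 10 or more counts summed were tested, with 0.5 counts added as a prior in log2 ratios. The edgeR exact test took its common dispersion from both libraries as 1 group. Its adjusted p and the binomial adjusted p were both Benjamini-Hochberg values over all genes tested. The edgeR quasi-likelihood test has no residual degrees of freedom with 1 library a side. The labels call the libraries biological replicates, from pools of different size. Intervals reflect counting error alone, since PCR copies could not be told from separate molecules. Simulated data with known changes were used to test the library comparison. The simulated counts held counting noise alone, without added spread between libraries, and changes larger than those of Dll1 and Dll3. They therefore do not show how reliable the binomial calls are in these libraries.

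The members, lists and tests were chosen with earlier results of these data known. Named were the 10 members, the 3 highest genes of each other list, every gene of lists of at most 4, genes past the test with 1.5-fold or more, and transcripts with 10% or more of their gene. Other transcripts, neighbours and genes past the test that are named were chosen after their values were seen. A few genes under this rule are not reported here. With 1 group no gene could be named for likeness of pattern. Sequences are those of the GENCODE M21 transcripts. Alternatives were DESeq2 1.42.0 size factors, unscaled totals, spike-in totals, a filter of 1 count, the edgeR exact test, the other deposited units, rescaled TPM, detection at 5 TPM, shares of counts and leaving out each library.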

Additional observations from a re-analysis of the deposited data

How the results depend on the processing

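The 2 calls among the 10 genes and the 14 among the 53 other pathway genes kept their number with DESeq2 size factors, with unscaled totals and with a filter of 1 count. With the edgeR exact test they were 0 and 0. With spike-in totals they were 3 and 16, as Notch2 joined Dll1 and Dll3 (log2 ratio 0.09, exact binomial adjusted p = 0.028). The log2 ratio of no member changed sign under these settings. These are ratios of counts, and in TPM Notch1 and Numb went the other way. Notch1 was at 53.89 TPM in replicate 1 and 55.94 in replicate 2, and Numb at 25.95 and 27.01. The weighted mean length of their transcript models was 8845 and 8247 bases for Notch1, and 2975 and 2706 for Numb. All 10 genes reached 1 TPM with posterior mean TPM, rescaled TPM, the highest transcript alone or either library alone, and 8 reached 5 TPM. Levels as FPKM or rescaled TPM are on other scales, such as 82.2 for Dll1 with spike-ins left out. The delta-like to jagged ratio was 3.16 in expected counts, which are not scaled by length, and the Numb to Numbl ratio was 1.60 in expected counts and 1.73 with posterior mean TPM. Inclusion of the 33-base Numb exon was 11.4% by counts and 22.6% by TPM, which is scaled by length. Of the transcripts with it, Numb-208 is 644 bases long and Numb-202 3468. Numb-203 and Numb-204, which skip it, are 3435 and 3549 bases. The part of these lengths in the difference was not tested. From either library alone the delta-like to jagged ratio ran from 5.79 to 6.43, the Numb to Numbl ratio from 1.70 to 1.72, inclusion of the 33-base exon from 14.8% to 30.3% and of the 147-base exon from 42.9% to 49.3%. No paired analysis was possible because the series holds 1 group. Depth limits Dll4 and Jag2, with under 200 counts in each library, and the Numb transcripts that carry the 33-base exon.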

Other observations

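Neurogenins are proneural factors that Hes repressors act on and that are known to switch on Dll1. Neurog2, the factor of dorsal progenitors, stood at 70.05 TPM in replicate 1 and 74.61 in replicate 2, and Neurog1 at 26.66 and 22.06. By the exact binomial test Neurog1 was higher in replicate 1 (log2 ratio -0.27, adjusted p = 0.0037), while Neurog2 was at 0.09 (adjusted p = 0.080). Neither passed the edgeR exact test (adjusted p = 0.86 for Neurog1 and 1 for Neurog2). Dll3 was higher in the same library as Neurog1, and Dll1 in the other. With 2 libraries no relation among these genes could be tested.

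Of the 6 pericyte markers, Cspg4 and Pdgfrb were higher in replicate 2 and Kcnj8 in replicate 1 by the exact binomial test, against a background of 11.9% and 11.1% of all genes. Cspg4 had 76 counts in replicate 1 and 175 in replicate 2 (log2 ratio 0.66, adjusted p = 0.0051 by the exact binomial test). Kcnj8 had 159 and 160 counts (log2 ratio -0.52, adjusted p = 0.0096 by the same exact test). The list thus moved in both directions, and none of the 6 passed the edgeR exact test (adjusted p = 0.27 for Cspg4 and 0.46 for Kcnj8).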
